A study of Oryctolagus cuniculus with 54 samples.

Results

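The 4 rabbit genes described here, ENSOCUG00000015108, ENSOCUG00000009084, ENSOCUG00000012637 and ENSOCUG00000000795, are 4 of the 29587 Ensembl genes counted in the lung. They were selected on their measured values, because their course from day 28 to day 35 after conception looked different after preterm delivery and in animals that stayed in the womb to term. Their levels over the 13 groups and the contrasts of those levels are therefore given as a description and without p-values, and the calls of the fit over all genes are printed for these contrasts only beside their share among all genes. The sources used here pair none of the 4 identifiers with a gene name, so no function or protein is given for them, and the labelled tissue could not be checked against named markers. The difference between sequencing runs in lungs sequenced more than once was not a contrast of the selection. It was tested between runs 3 and 1 only, because the run 2 libraries of these lungs are the F28 and T35 libraries on which the genes were chosen. The run 1 and run 3 libraries of these lungs also belong to the 13 groups in view at the selection. The p-values between runs 3 and 1 are therefore not independent of it.

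Lung RNA came from 45 New Zealand White rabbits, sequenced as 54 libraries in 3 runs with a kit that reads messenger RNA near its 3′ end. Fetuses were delivered by caesarean section at 20, 23, 25, 27, 28 or 29 days after conception, and these groups are called F20 to F29. Term pups were born naturally at day 31 and were studied at birth (T31) or after 4, 6 or 11 days with their mothers (T35, T37 and T42). Preterm pups were delivered by caesarean section at day 28 and were studied after 1 h (P0), 3 days (P3) or 7 days (P7) in incubators with room air, fed milk replacer by orogastric tube. The study's methods state, for the lungs of each time point, that each came from a pup of a different dam. Whether groups shared dams is not stated there. The material was homogenate of the right lung according to the labels, whereas the methods describe whole lungs for F20 and F23.

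The rabbit lung passes through branching tubes, widening canals and thin-walled sacs before alveoli form, and a pup delivered by section before term begins to breathe air with a lung in the saccular phase. Birth adds several changes at once: liquid is cleared, gas exchange begins, surfactant is released and oxygen rises. At the same age after conception, the preterm and term pups of this series also differed in mode of delivery, days of air breathing, housing and feeding. These cannot be told apart here.

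Levels are given as CPM, the count of a gene relative to the total count of its library (counts per 1000000) after scaling by the trimmed mean of M values (TMM). The libraries held 5771693 to 8073755 counts, so that 1 CPM corresponds to only a few reads. Run 2 is the only run with both courses. It held 12 libraries of 12 animals, 2 each of F28, T35 and P7 and 3 each of P0 and P3. The third P7 animal was sequenced in run 3. All F28 and T35 lungs of runs 2 and 3 were also sequenced in run 1. Runs 2 and 3 thus add no new animals of these groups. In whole lung, fewer cells of a type and less RNA per cell cannot be told apart.

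**Figure D1:**
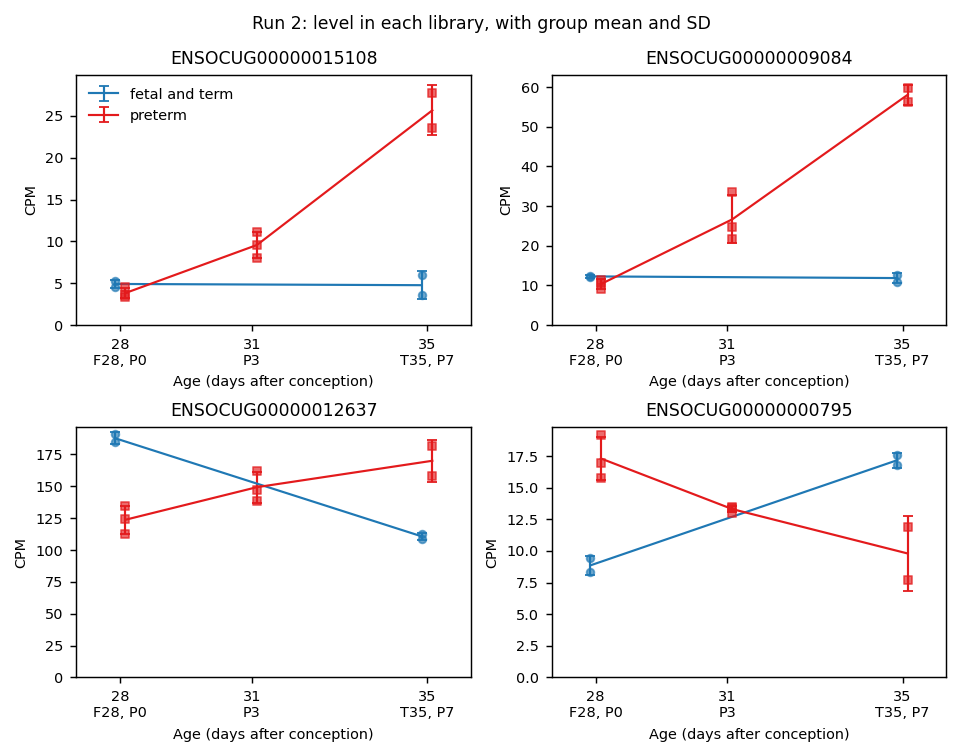
Level of each gene (CPM, linear axis from 0) against age in days after conception in the 12 libraries of run 2, with points for single libraries, lines through group means and bars for the SD. Both P7 libraries of ENSOCUG00000015108 and ENSOCUG00000009084 lie above every other library of the run, and the lines of ENSOCUG00000012637 and ENSOCUG00000000795 cross.

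ENSOCUG00000015108 was low at delivery and highest at P7. In run 2 its level was 5.29 and 4.56 CPM in the F28 lungs and 5.97 and 3.58 CPM in the T35 lungs. The P0 lungs held 3.63, 3.37 and 4.50 CPM, the P3 lungs 11.1, 8.02 and 9.58 CPM, and the P7 lungs 27.8 and 23.5 CPM. F28 and T35 overlapped, whereas P0, P3 and P7 followed each other without overlap, with a mean at P3 2.50-fold that at P0 and a mean at P7 2.68-fold that at P3. The counts behind these values were 22 to 38 in F28, T35 and P0 and 168 to 187 in P7.

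The higher P7 level of ENSOCUG00000015108 had no counterpart between F28 and T35. The fitted log2 difference between P7 and P0 was 2.71 ± 0.26 (SE, n = 2 and 3), and that between T35 and F28 was -0.04 ± 0.31 (SE, n = 2 and 2). The first minus the second was 2.75 ± 0.41. In the other runs, which share lungs with run 2, the F28 to T35 difference was 0.21 ± 0.48 in run 1 (n = 3 and 3) and -0.13 ± 0.47 in run 3 (n = 2 and 2). Its sign depended on single lungs: without animal 6 of T35 the run 2 difference was 0.30, and without animal 11 it was -0.46.

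Over the full fetal course ENSOCUG00000015108 was close to the counting limit until F27. The 14 fetal animals at F20, F23, F25 and F27 gave 1 to 12 counts per library, or 0.14 to 1.72 CPM, and fold changes against them are not given. From F28 on every library held at least 13 counts. Run 1 showed 4.26, 4.91 and 1.79 CPM at F28 and 2.22, 2.26 and 4.11 CPM at F29, which overlapped. Later libraries of run 1 held 3.38 to 6.89 CPM at T31 and 2.96 to 5.63 CPM at T35, and these overlapped with F28 as well. In run 3 the term groups spanned 4.02 CPM in a T37 lung to 11.2 CPM in a T42 lung, and the neighbouring term groups overlapped. The P7 library of run 3 held 26.4 CPM, within the range of the P7 libraries of run 2. It was 3.26-fold the T42 mean, 3.38-fold the T31 mean and 4.36-fold the T35 mean of the run, and above every other library of that run.

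ENSOCUG00000009084 showed a similar preterm course at a higher count. In run 2 the F28 lungs held 12.1 and 12.5 CPM and the T35 lungs 11.0 and 12.7 CPM, and the term course thus overlapped. The P0 lungs held 10.6, 9.04 and 11.4 CPM, the P3 lungs 33.5, 21.8 and 24.8 CPM and the P7 lungs 59.9 and 56.3 CPM. Every P0 lung lay below both F28 lungs, and P0, P3 and P7 did not overlap, with a mean at P3 2.58-fold that at P0 and a mean at P7 2.18-fold that at P3. The log2 difference between P7 and P0 was 2.46 ± 0.19 (SE, n = 2 and 3), that between T35 and F28 was -0.04 ± 0.22 (SE, n = 2 and 2), and the first minus the second was 2.50 ± 0.30. F28 and T35 overlapped in the other runs too, with log2 differences of 0.10 ± 0.30 in run 1 (SE, n = 3 and 3) and 0.35 ± 0.44 in run 3 (SE, n = 2 and 2).

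In contrast to ENSOCUG00000015108, ENSOCUG00000009084 was already measured at the earliest age and was lowest at F25. Run 3 held 9.30, 15.7, 11.0 and 8.71 CPM at F20, and 10.1, 4.89, 9.42 and 3.08 CPM at F23, which overlapped. The single F25 library of that run was at 2.93 CPM, below all of these. The F25 libraries of run 1 were at 1.87, 1.41 and 3.36 CPM, and F27 followed with 4.13, 4.39 and 2.70 CPM, overlapping with F25. F28 was above both, with 9.65, 5.63 and 7.98 CPM and a mean 3.50-fold that at F25. F29 held 7.62, 5.51 and 4.11 CPM and overlapped with F28 and F27.

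At birth at term ENSOCUG00000009084 was at 9.81, 9.92 and 11.4 CPM in the T31 lungs of run 1 and at 24.9, 29.5 and 20.3 CPM in those of run 3. The T31 animals of both runs were different, so that run and animal cannot be told apart at this age. In each run T31 lay above T35 without overlap, 1.25-fold in run 1 and 1.71-fold in run 3. T37 spanned 9.39 to 18.5 CPM and T42 spanned 14.2 to 18.3 CPM, and these overlapped. The P7 library of run 3 held 64.3 CPM, 2.58-fold the T31 mean, 4.41-fold the T35 mean and 4.00-fold the T42 mean of the same run.

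**Figure D2:**
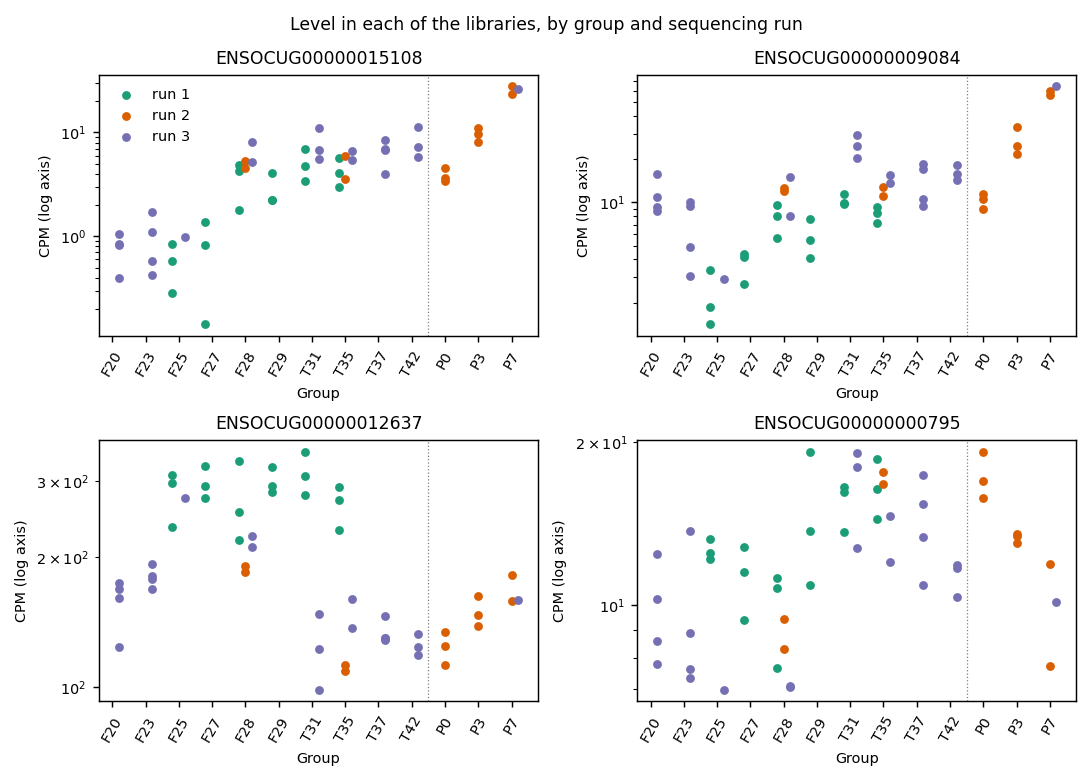
Level of each gene in all 54 libraries (CPM, log axis) by group, coloured by sequencing run, with the preterm groups to the right of the dotted line. The 3 P7 libraries of ENSOCUG00000015108 and ENSOCUG00000009084 lie above all other libraries. The run 1 libraries of ENSOCUG00000012637 lie above those of run 3 at T31 and above those of run 2 and run 3 at T35.

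ENSOCUG00000012637 had the most counts of the 4 genes, with 659 to 2617 counts per library. In run 2 it was at 185 and 191 CPM in the F28 lungs and at 113 and 109 CPM in the T35 lungs, a T35 mean 0.589-fold that at F28. The P0 lungs held 125, 134 and 112 CPM, the P3 lungs 147, 162 and 138 CPM and the P7 lungs 158 and 182 CPM. P0 lay wholly below F28, at a mean 0.659-fold as high, although both groups had the same age. P3 lay above P0 without overlap and overlapped with P7, and the P7 mean was 1.37-fold that at P0. The P7 lungs lay above both T35 lungs and below both F28 lungs.

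The fitted differences of ENSOCUG00000012637 had opposite signs in the preterm and the term course of run 2. The log2 difference between P7 and P0 was 0.43 ± 0.10 (SE, n = 2 and 3) and that between T35 and F28 was -0.75 ± 0.12 (SE, n = 2 and 2), so that the first minus the second was 1.19 ± 0.15. The difference between P0 and F28 was -0.60 ± 0.10 (SE, n = 3 and 2).

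The lower T35 level of ENSOCUG00000012637 was not seen in run 1. There the F28 lungs held 255, 219 and 334 CPM and the T35 lungs 292, 271 and 232 CPM, with overlapping ranges and a log2 difference of -0.02 ± 0.15 (SE, n = 3 and 3). In run 3 the F28 lungs were at 224 and 211 CPM and the T35 lungs at 160.4 and 137 CPM, a log2 difference of -0.53 ± 0.17 (SE, n = 2 and 2). The T31 lungs were at 279 to 352 CPM in run 1, where they overlapped with F28, and at 98.7 to 148 CPM in run 3, where they lay below F28. The P7 library of run 3, at 159.6 CPM, lay between the T35 libraries of that run. The distance between P7 and T35 seen in run 2 was thus not repeated in run 3, in which P7 was a single lung.

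Along the fetal course the run 3 libraries of ENSOCUG00000012637 held 124 to 174 CPM at F20, 169 to 193 CPM at F23, 275 CPM in the F25 lung and 211 to 224 CPM at F28. F20 and F23 overlapped, and F28 lay above both. In run 1 the 12 libraries of F25, F27, F28 and F29 spanned 219 to 334 CPM and all neighbouring groups overlapped. After birth at term the run 3 levels were 129 to 146 CPM at T37 and 119 to 133 CPM at T42, below every fetal library of F23, F25 and F28 in that run.

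ENSOCUG00000000795 ran in the other direction. In run 2 the F28 lungs held 8.31 and 9.41 CPM and the T35 lungs 16.8 and 17.6 CPM, a T35 mean 1.94-fold that at F28. The P0 lungs held 16.9, 15.8 and 19.2 CPM, the P3 lungs 13.5, 13.03 and 13.4 CPM and the P7 lungs 11.9 and 7.71 CPM. P0, 1 h after delivery, was 1.95-fold F28 without overlap, and overlapped with T35. P3 and P7 lay below P0 without overlap, and P7 overlapped with F28.

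For ENSOCUG00000000795 the log2 difference between P7 and P0 was -0.85 ± 0.21 (SE, n = 2 and 3) and that between T35 and F28 was 0.96 ± 0.23 (SE, n = 2 and 2). The first minus the second was -1.81 ± 0.32, and the difference between P0 and F28 was 0.97 ± 0.22 (SE, n = 3 and 2). The P7 value rested on unequal lungs: without animal 4 of P7 the P7 to P0 difference was -0.56, and without animal 3 of P7 it was -1.19. The higher level at T35 was found in each run, with 0.74 ± 0.21 in run 1 (n = 3 and 3) and 0.92 ± 0.31 in run 3 (n = 2 and 2), and F28 and T35 did not overlap in any of the 3 runs. The F28 and T35 lungs of runs 2 and 3 were all among those of run 1, so the runs are not independent replicates.

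The fetal groups of ENSOCUG00000000795 overlapped at most ages. F20 spanned 7.78 to 12.5 CPM and F23 spanned 7.33 to 13.7 CPM in run 3, which overlapped. F25 spanned 12.2 to 13.2 CPM, F27 spanned 9.38 to 12.8 CPM, F28 spanned 7.65 to 11.2 CPM and F29 spanned 10.9 to 19.1 CPM in run 1, and F28 lay below F25 without overlap. T31 held 13.6 to 16.5 CPM in run 1 and 12.7 to 19.1 CPM in run 3, above F28 of the same run in both. T42 lay below T31 in run 3, at 10.3 to 11.8 CPM. The P7 library of run 3 was at 10.1 CPM, below all term libraries of that run and above both F28 libraries.

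**Figure D3:**
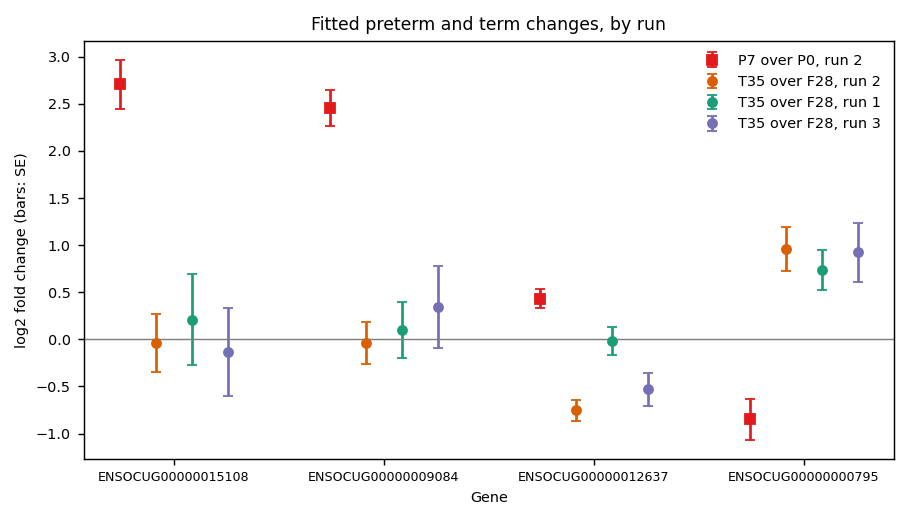
Fitted log2 difference of each gene between P7 and P0 in run 2 and between T35 and F28 in each of the 3 runs, with bars for the SE. The P7 to P0 points of ENSOCUG00000015108 and ENSOCUG00000009084 lie at 2.71 and 2.46 with term points near 0, and the term points of ENSOCUG00000012637 range from -0.75 in run 2 to -0.02 in run 1.

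Preterm and other lungs of the same age were also set side by side in run 2. Between P0 and F28, which share the age of 28 days, the log2 difference was -0.36 ± 0.29 for ENSOCUG00000015108 and -0.25 ± 0.20 for ENSOCUG00000009084. It was -0.60 ± 0.10 for ENSOCUG00000012637 and 0.97 ± 0.22 for ENSOCUG00000000795. Between P7 and T35, which share the age of 35 days, it was 2.39 ± 0.29 for ENSOCUG00000015108, 2.25 ± 0.22 for ENSOCUG00000009084, 0.58 ± 0.11 for ENSOCUG00000012637 and -0.84 ± 0.23 for ENSOCUG00000000795. The median absolute log2 difference over all 13791 genes tested was 0.23 between P0 and F28 and 0.26 between P7 and T35.

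No run held both P3 and T31, which share the age of 31 days, and their levels can only be set side by side. For ENSOCUG00000009084 the P3 range of 21.8 to 33.5 CPM in run 2 stood above the T31 range of run 1 and overlapped with that of run 3. For ENSOCUG00000012637 the P3 range of 138 to 162 CPM stood below T31 of run 1 and overlapped with T31 of run 3. ENSOCUG00000015108 overlapped at P3 with T31 of run 3 only, and ENSOCUG00000000795, at 13.03 to 13.5 CPM, lay just below T31 of run 1 and within the range of run 3.

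With the thresholds of the study, an absolute fold change above 2 and a Benjamini-Hochberg adjusted p of at most 0.05 in edgeR's quasi-likelihood test, the preterm minus term difference was called for 19 of 13791 genes in run 2, or 0.138%. These included 3 of the 4 genes, all but ENSOCUG00000000795. The 4 genes had been selected on this contrast and on those between P0 and P7 and between F28 and T35, so nothing is read from their calls in any of these. It also rested on single lungs: without animal 4 of P7 or without animal 6 of T35, 0 genes and 0 of the 4 were called, with 1371 and 1606 genes at an unadjusted p under 0.05 against 1833 with all 12 libraries. Without animal 2 or animal 9 of F28, 4 and 8 genes and 1 of the 4 were called. Between P0 and P7, 588 genes (4.26%) were called, among them 2 of the 4, ENSOCUG00000015108 and ENSOCUG00000009084. Without animal 3 of P7 the log2 difference of ENSOCUG00000000795 between P7 and P0 was -1.19, beyond a fold change of 2. Between F28 and T35, 471 genes (3.42%) were called in run 2 and 701 of 14600 (4.80%) in run 1, and 0 of the 4 in either, as all their fold differences were below 2. Over 21 animals with the run in the model, 331 of 14544 genes were called between F28 and T35. ENSOCUG00000000795 was among them, at a log2 difference of 1.02. The median absolute log2 value over all genes tested was 0.38 for the preterm minus term difference, 0.30 for P7 against P0 and 0.33 for T35 against F28 in run 2.

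The spread between lungs of a group in run 2 was near counting error in some groups and above it in others. At T35 the coefficient of variation of ENSOCUG00000015108 was 35.4% where counting alone gives 17.8% (n = 2). It was 22.9% against 7.36% for ENSOCUG00000009084 at P3 (n = 3) and 30.1% against 12.2% for ENSOCUG00000000795 at P7 (n = 2). For ENSOCUG00000012637 it was 8.90% against 3.5% at P0, 8.11% against 3.11% at P3 and 9.73% against 2.91% at P7. The same gene had 2.47% against 2.82% at F28 and 2.39% against 3.68% at T35. ENSOCUG00000000795 at P3 had 1.86% against 10.4%. At P7 the spread of ENSOCUG00000009084 was 4.29% against 4.98%, so its P7 libraries differed by no more than counting error. Counting error takes reads as independent molecules, which cannot be checked without molecular identifiers.

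**Figure D4:**
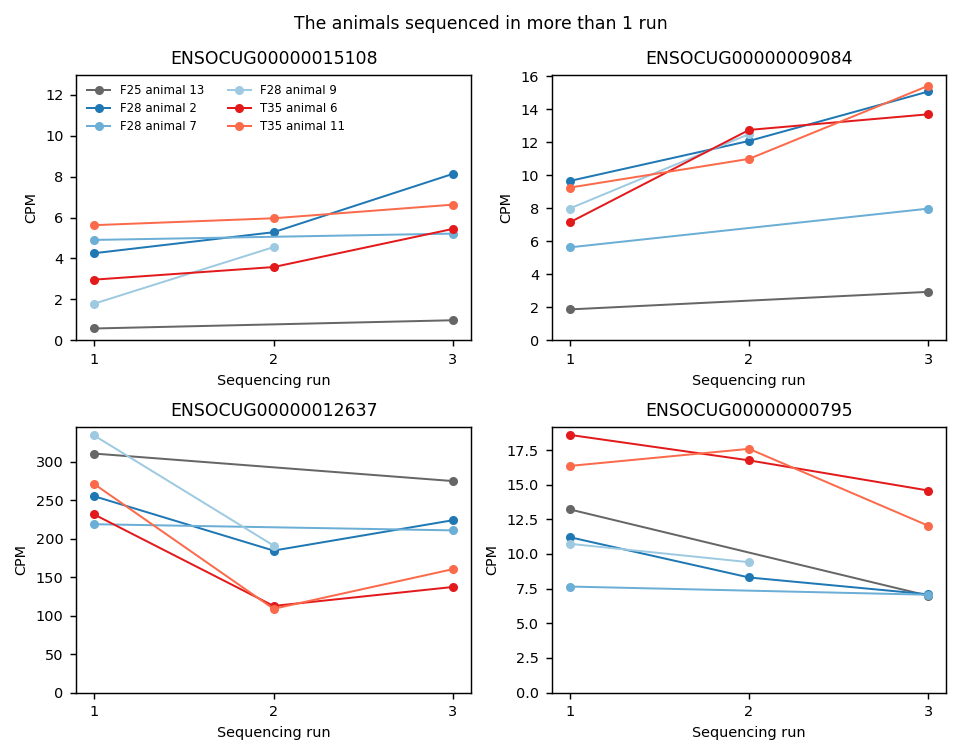
Level of each gene (CPM, linear axis from 0) against sequencing run in the 6 animals sequenced in more than 1 run, with 1 line per animal. ENSOCUG00000012637 is lower in run 2 than in run 1 in all 4 animals sequenced in both, and the run 2 level of its T35 animals is a smaller share of the run 1 level than that of its F28 animals.

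The 6 lungs sequenced in more than 1 run, 1 of F25, 3 of F28 and 2 of T35, gave 15 libraries which were compared between runs with the animal as a block, run 2 included in the fit. For ENSOCUG00000012637, animal 2 of F28 gave 255, 185 and 224 CPM in runs 1, 2 and 3, and animal 9 of F28 gave 334 and 191 CPM in runs 1 and 2. Animal 6 of T35 gave 232, 113 and 137 CPM, and animal 11 of T35 gave 271, 109 and 160.4 CPM. The run 2 level was thus 0.723 and 0.572 of the run 1 level in the F28 animals but 0.486 and 0.402 in the T35 animals. The same lungs lay at overlapping levels for F28 and T35 in run 1 and apart in run 2.

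By edgeR's quasi-likelihood test, with p-values adjusted after Benjamini and Hochberg over all genes, ENSOCUG00000012637 was lower in run 3 than in run 1 by a log2 difference of -0.45 ± 0.10 (adjusted p = 0.000422, lower in 5 of 5 animals). The run 3 level was 0.885 of the run 1 level in the F25 animal and 0.878 and 0.963 in the F28 animals. In the T35 animals it was 0.592 and 0.593. The run 2 values of ENSOCUG00000012637 are a description: the log2 difference was -0.92 ± 0.11 from run 1, lower in 4 of 4 animals, and -0.47 ± 0.12 from run 3, lower in 3 of 3. This gene was selected with its low T35 levels of run 2 in view, so these differences share libraries with the selection. Whether the run effect itself differed between F28 and T35 animals was not tested.

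ENSOCUG00000009084 differed between runs 3 and 1 in the other direction. Its run 3 level was 1.42 to 1.92 times the run 1 level over 5 animals, with a log2 difference of 0.67 ± 0.15 (edgeR, adjusted p = 0.000662, higher in 5 of 5). Its run 2 level was above that of run 1 by 0.41 ± 0.16, higher in 4 of 4 animals, and differed from that of run 3 by -0.25 ± 0.16, both given without a test.

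ENSOCUG00000015108 was higher in run 3 than in run 1 by 0.57 ± 0.23 (edgeR, adjusted p = 0.0353, higher in 5 of 5 animals). Without animal 13 of F25, animal 2 of F28, animal 9 of F28 or animal 6 of T35 the adjusted p was 0.0637, 0.185, 0.0571 and 0.123, and over the animals sequenced in all 3 runs it was 0.0578. The call was thus lost without any 1 of these animals. Its differences were 0.30 ± 0.25 between run 2 and run 1 and -0.27 ± 0.26 between run 2 and run 3, both given without a test.

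ENSOCUG00000000795 was lower in run 3 than in run 1 by -0.56 ± 0.14 (edgeR, adjusted p = 0.00183, lower in 5 of 5 animals). Between run 2 and run 1 the difference was -0.23 ± 0.15 and between run 2 and run 3 it was 0.33 ± 0.17. The T35 level exceeded the F28 level of the same run in all animals of each run, as given above.

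Run differences were common among all genes. Of 14360 genes tested, 68.3% differed between any runs, 56.1% between runs 2 and 1, 63.8% between runs 3 and 1, and 20.7% between runs 2 and 3. The 4 genes counted 3, 2, 4 and 1 calls in these comparisons, and nothing is read from the counts that involve run 2. The median absolute log2 difference over all genes was 0.58 between runs 2 and 1, 0.67 between runs 3 and 1 and 0.30 between runs 2 and 3, so that only ENSOCUG00000012637 stood above it for runs 2 and 1, only ENSOCUG00000009084 matched it for runs 3 and 1, and ENSOCUG00000012637 and ENSOCUG00000000795 stood above it for runs 2 and 3.

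Likeness of course was described by Pearson's r of the 13 group means of log2 CPM, among 15945 genes and without a test, since groups share runs and depth. ENSOCUG00000015108 and ENSOCUG00000009084 were alike at r = 0.89, and at 0.89 also with the run removed. ENSOCUG00000015108 ranked 74 among the genes nearest to ENSOCUG00000009084, which in turn ranked 456 among those nearest to ENSOCUG00000015108. The gene nearest to ENSOCUG00000015108 was ENSOCUG00000008200 at r = 0.98, and 0.94 at rank 42 with the run removed. ENSOCUG00000008200 held 14.6 and 26.0 CPM at F28, 38.5 and 46.8 CPM at T35, 21.9 to 28.9 CPM at P0, 60.02 to 73.3 CPM at P3 and 105 to 144 CPM at P7 in run 2. It shared the high P7 level, but its T35 libraries also lay above its F28 libraries without overlap.

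For ENSOCUG00000009084 the nearest gene was ENSOCUG00000001606 at r = 0.96, and 0.78 at rank 306 with the run removed. In run 2 ENSOCUG00000001606 held 7503 and 7670 CPM at P7 against 4964 to 7264 CPM in the other groups. For ENSOCUG00000000795 it was ENSOCUG00000032780 at r = 0.89, and 0.79 at rank 11 with the run removed. ENSOCUG00000032780 had 0 to 8 counts per library, so this likeness rests on very few reads. For ENSOCUG00000012637 it was ENSOCUG00000010494 at r = 0.97. With the run removed that r was -0.13, at rank 9581. ENSOCUG00000010494 held 275 to 420.3 CPM over the 18 libraries of run 1 and 189 to 233 CPM over the 12 of run 2.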

How the data were processed

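The deposited table holds whole-number counts per Ensembl gene without normalization. The authors made libraries with QuantSeq FWD, trimmed reads with BBduk, mapped them with STAR on OryCun2.0 and used HTSeq-count for counting. A custom script handled reads in unannotated 3′ UTRs, and whether these are in the table is not given in the sources used here, nor are tool versions. All 54 columns were mapped to animals by their labels and 0 remained unmapped. Each animal counted as 1 replicate.

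From these counts, groups were compared with edgeR 4.0.16 in R 4.3.3 (quasi-likelihood test, TMM, at least 0.5 CPM in at least 3 fitted libraries, Benjamini-Hochberg adjustment over all genes tested). The preterm and term fit used the 12 libraries of run 2, a second F28 to T35 fit the 18 of run 1, and the run test the 15 libraries of the 6 animals of more than 1 run, blocked by animal. CPM used TMM library sizes over all 54 libraries, and likeness used log2 CPM with a prior count of 2. Folds are ratios of mean CPM over the libraries of a group in a run. An SE is the log2 difference divided by the square root of its F value.

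Alternatives were limma-voom (limma 3.58.1), DESeq2 1.42.0, RLE size factors, no filter, at least 10 counts in every library, 21 animals with the run in the model or with summed libraries, single runs, plain library totals, a replicate block and each animal left out in turn. Leaving out animals of run 1 was added after seeing the data. The fits were tested on simulated data.

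The 4 genes, the lists and the tests were chosen with earlier results of these data known. Named genes were the 4 and, for each, the gene with the highest r over the 13 group means. The identifiers were looked up in a RefSeq table of 38822 entries, and 0 were paired with a symbol. The 24 marker and pathway lists with 232 symbols could therefore not be used, and 0 of their symbols occur in the table. No sequence is shown for the same reason. Drawings were made with matplotlib 3.10.9 in Python 3.11.15.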

Additional observations from a re-analysis of the deposited data

Results flagged for a closer look

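Among 16 sets of 4 or more animals of a group, the level of ENSOCUG00000012637 in animal 27 of T37 stood apart. It was 146 CPM against 129 to 130 CPM in the other 3 T37 lungs of run 3, and the gap to the nearest was 0.928 of the whole range of the group, above Dixon's critical value for 4 samples. Chance alone puts about 1 in 20 groups above the critical value, and 16 were looked at.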

How the results depend on the processing

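The signs of the P7 to P0 difference and of the preterm minus term difference of the 4 genes were the same under every alternative run. So was the sign of ENSOCUG00000000795 between F28 and T35. The alternatives for the P7 to P0 and the preterm minus term difference reuse libraries on which the genes were chosen. So do most of those for F28 to T35. The F28 to T35 fits within the other runs share animals with run 2, and their groups were in view at the selection. Equal signs are therefore a description only for all of these differences. The F28 to T35 difference of ENSOCUG00000012637 was below 0 throughout except in run 1, where it ran from -0.17 to 0.16 without single animals. Sizes and counts of calls moved more, and the causes were not tested. The preterm minus term difference was called for 19 of 13791 genes in edgeR. With 21 animals and summed libraries it was called for 0 of 14500 (794 at an unadjusted p under 0.05), and for 0 of the 4 genes. DESeq2 called 163 of 13791, no filter 290 of 20467, at least 10 counts 25 of 9681 and the 21 animals with the run 5 of 14544. Each of these settings called 4 of the 4, from which nothing is read. Leaving out 1 animal of P0 at a time gave 13 to 28 genes, and single lungs of the other groups are described above. Between F28 and T35 of run 2 the count of 471 became 717 without a filter, 225 with summed libraries and 231 to 468 without single animals, lowest without animal 9 of F28, then 243 without animal 2 of F28, 288 without animal 11 of T35 and 296 without animal 6 of T35. In run 1 the count of 701 ran from 463, without animal 6 of T35, to 790. Without single animals, the 588 genes called between P0 and P7 ran from 384, without animal 4 of P7, to 588, and the other alternatives gave 403 to 789.

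With 21 animals and the run in the model, ENSOCUG00000009084 had a preterm minus term difference of 2.19 and an F28 to T35 difference of 0.32, which was 0.35 within run 3. For ENSOCUG00000012637 summed libraries gave 0.54 and -0.12, and F28 to T35 within runs 1 and 3 gave -0.021 and -0.53. The F28 to T35 difference of ENSOCUG00000000795 was 0.74 within run 1. Without single animals, the preterm minus term difference of ENSOCUG00000000795 ran from -2.15 to -1.52 and its P7 to P0 difference from -1.19 to -0.56, whereas ENSOCUG00000015108 ran from 2.41 to 3.17 and, between F28 and T35, from -0.46 to 0.30. Where 1 animal was left in a group, it was assumed to vary like the others.

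Whether animal numbers shared by groups pair the lungs could not be decided. The 5 same-numbered pairs had correlations from -0.13 to 0.12 with a median of 0.05, and 1 exceeded 0.1. The 16 pairs of different number ran from -0.12 to 0.13 with a median of -0.02, and 1 exceeded 0.1. Values were deviations from group means, so those of the 2 P7 lungs mirror each other. With a replicate block by animal number over the preterm libraries, 412 genes were called between P0 and P7, among them the same 2 of the 4, and the log2 differences were 2.73, 2.54, 0.46 and -0.86 for ENSOCUG00000015108, ENSOCUG00000009084, ENSOCUG00000012637 and ENSOCUG00000000795. The depth limits ENSOCUG00000015108 before F28, where a library held 1 to 12 counts.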
